A study of Homo sapiens with 12 samples.

Results

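The genes described here were 10 members of the ATF4-CHOP branch of the cellular stress response: the transcription factors ATF4, ATF3, ATF5, DDIT3 (which encodes CHOP), CEBPB, CEBPG and JDP2, and the partners or targets NUPR1, TRIB3 and CHAC1. They were chosen by name, with earlier results of these data known. All 10 were found among the 60675 genes of the deposited table, of which 30808 had a count in some library. RNA sequencing was carried out on SW1783, an established human astrocytoma cell line, in 4 groups of 3 libraries that were all collected at 24 h. The vehicle group was given PBS containing 2% DMSO. The low, medium and high dose groups were given a water extract of Aconitum carmichaeli Debeaux (ACD), an aconite used in herbal medicine, at 20, 100 and 500 µg/mL. The study describes an equal added volume at every dose and a stock made up in the vehicle's own solvent, while the diluent of the weaker solutions is not given in the sources used here. A protocol attached to the samples describes a different herb, Poria cocos, so the identity of the extract rests on the titles and treatment labels. Nothing states that the 3 libraries of a group came from separate cultures, so the p-values measure the spread between these libraries, which may be technical. All results come from a single cell line at a single time, and more RNA per cell cannot be told apart from a larger share of cells with that RNA.

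When proteins misfold in the endoplasmic reticulum, amino acids run short, or heme or mitochondria fail, kinases phosphorylate the translation factor eIF2. Most protein synthesis then slows, while translation of ATF4 increases because of the upstream reading frames in its mRNA. ATF4 binds composite C/EBP-ATF elements together with partners such as CEBPG, and switches on genes for amino acid supply along with DDIT3, ATF3, TRIB3 and CHAC1. Prolonged activity of this branch, and of CHOP in particular, is linked to cell death. RNA levels say nothing of the translational step itself.

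Of the 10 members, 9, 9 and 2 rose at the high, medium and low dose, and none fell past the thresholds in any of these comparisons. The members that rose at both upper doses were ATF4, ATF3, DDIT3, CEBPB, CEBPG, NUPR1, TRIB3, CHAC1 and JDP2, and the 2 that also rose at the low dose were CHAC1 and NUPR1. Those 2 met the minimum mean count of the low dose comparison only through their higher counts at the upper doses, as given below. ATF5 was the exception, with a log2 fold change of -0.42 at the high dose. A gene was called when its Benjamini-Hochberg adjusted p in the DESeq2 Wald test was under 0.05 and its fold change exceeded 1.5. Among all genes tested, 8.66% were called higher and 9.57% lower at the high dose, 2.34% higher and 1.48% lower at the medium dose, and 0.0967% higher and 0.0215% lower at the low dose. This balance depends on the scaling: at the high dose 1684 genes were called higher and 1862 lower, but 1293 and 2494 with total counts as size factors, and at the medium dose 329 and 208, but 241 and 440. The median log2 fold change of the members was 2.48, 1.64 and 0.38 in falling order of dose, beside -0.01, 0.00 and 0.01 over all tested genes. Between adjacent doses, 7 members rose from medium to high, where 4.58% of tested genes were called higher and 5.61% lower. From low to medium 8 members rose, where 1.35% were called higher and 0.589% lower (190 and 83 genes, but 151 and 152 with total counts as size factors). In the likelihood ratio test among the 4 groups all 10 members had an adjusted p under 0.05, as did 45.8% of all tested genes. The comparisons with the vehicle share its 3 libraries, and each pair of adjacent comparisons shares a dose group.

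**Figure D1:**
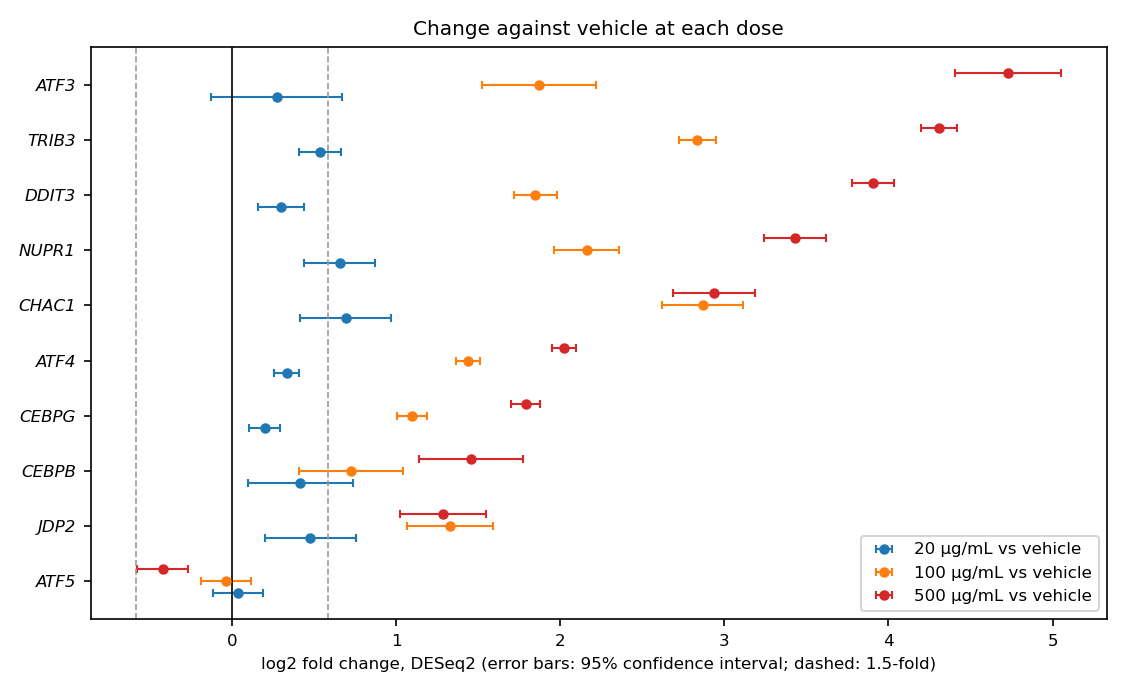
Log2 fold changes of the 10 members (horizontal axis) against vehicle at the low, medium and high dose, with 95% confidence intervals from DESeq2 as bars. The high dose points lie to the right of the medium dose points for ATF4, ATF3, DDIT3, CEBPB, CEBPG, NUPR1 and TRIB3, the 2 points nearly coincide for CHAC1 and JDP2, and ATF5 lies at -0.42 at the high dose.

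The sequence upstream of the transcription start is shown for the 3 members in which a short motif of the ATF4 and AP-1 families was found, since it is through such elements that factors of this family act on each other's genes. RefSeq promoter windows of GRCh38.p14, with 250 bases before and 50 after the start, were at hand at the main transcript start for 7 of the 10 members; ATF3, NUPR1 and TRIB3 were not searched. Each window was searched on both strands for TGATGNAA, the core of the C/EBP-ATF response element (CARE), for TGACGTCA, the cAMP response element (CRE), and for TGACTCA, the AP-1 site. None of these motifs contains another. The 250 bases before the start are printed 5′ to 3′ on the gene's own strand, with the match in capitals. They cover chr12:57520515-57520764 on the minus strand for DDIT3, chr15:40953221-40953470 on the plus strand for CHAC1 and chr14:75427772-75428021 on the plus strand for JDP2.
DDIT3: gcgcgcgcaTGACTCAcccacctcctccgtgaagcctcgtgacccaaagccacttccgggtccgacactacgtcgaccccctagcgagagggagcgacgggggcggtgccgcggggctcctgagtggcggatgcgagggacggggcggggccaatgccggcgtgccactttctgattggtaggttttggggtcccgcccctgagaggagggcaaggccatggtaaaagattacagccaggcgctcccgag
CHAC1: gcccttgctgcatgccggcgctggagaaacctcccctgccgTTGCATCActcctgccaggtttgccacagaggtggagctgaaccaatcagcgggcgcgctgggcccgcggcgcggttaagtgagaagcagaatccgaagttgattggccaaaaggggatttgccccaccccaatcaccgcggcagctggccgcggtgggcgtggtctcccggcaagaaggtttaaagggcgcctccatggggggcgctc
JDP2: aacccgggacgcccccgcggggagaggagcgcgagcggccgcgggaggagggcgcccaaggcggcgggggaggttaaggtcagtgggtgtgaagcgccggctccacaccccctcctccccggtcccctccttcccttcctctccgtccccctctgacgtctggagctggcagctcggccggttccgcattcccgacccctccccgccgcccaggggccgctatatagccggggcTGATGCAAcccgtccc

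The DDIT3 window held an AP-1 site, TGACTCA, 241 to 235 bases before the start. The CHAC1 window held a CARE core on the opposite strand, read here as TTGCATCA, 209 to 202 bases before the start. The JDP2 window held a CARE core, TGATGCAA, 16 to 9 bases before the start. The windows of ATF4, ATF5, CEBPB and CEBPG held none of these letters, and 0 of the 7 held a CRE. Over 14502 RefSeq promoters of the same length, 2.38% held the CARE core, 2.86% the CRE, 3.46% the AP-1 site and 8.5% any of them. A match describes letters in this window and not a bound site.

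ATF4 (ENSG00000128272, chromosome 22, 39519695 to 39522683 on the plus strand of GRCh38) encodes the basic leucine zipper (bZIP) factor at the head of this branch. Its normalised counts, which are counts divided by the DESeq2 size factor of the library, were 2092, 2024 and 2060 with vehicle and 2543, 2584 and 2656 at 20 µg/mL. They were 5380, 5590 and 5744 at 100 µg/mL and 8623, 8070 and 8446 at 500 µg/mL. The 4 groups therefore formed 4 separate ranges in the order of the dose. The log2 fold change against vehicle was 0.33 (SE 0.0396) at 20 µg/mL, 1.44 (SE 0.0378) at 100 µg/mL and 2.03 (SE 0.0372) at 500 µg/mL. By the DESeq2 Wald test the low dose gave an adjusted p of 2.66e-14 with a fold change of 1.26, under the fold threshold, and for the upper doses the p was too small for the software to represent. From medium to high the fold change was 1.503 (DESeq2 adjusted p = 1e-63), which only just passed 1.5. That call was lost with edgeR (log2 fold change 0.58), with only the 6 libraries compared (0.58), and without high replicate 1 (0.57), high replicate 3 (0.58) or medium replicate 1 (0.56), while the direction held. It was also lost with the Wald test against the fold threshold. None of the 4 ATF4 pseudogenes in the table had more than 3 counts in a library. Their summed counts in any library were at most 0.204% of the lowest ATF4 count.

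ATF5 (ENSG00000169136, chromosome 19, 49928702 to 49933935, plus strand) encodes the bZIP factor nearest to ATF4, whose translation is also raised by eIF2 phosphorylation. Its normalised counts were 542.1, 530.9 and 571.4 with vehicle, 548.2, 566.1 and 573.4 at 20 µg/mL, 542.5, 540.5 and 521.1 at 100 µg/mL and 431.8, 394.6 and 402.2 at 500 µg/mL. The high dose libraries lay below all others, and the low and medium dose libraries overlapped those of the vehicle. The DESeq2 log2 fold change was -0.42 at 500 µg/mL (SE 0.0804, adjusted p = 6.64e-07), a 1.34-fold lower level that did not reach the fold threshold. At the medium dose it was -0.04 (adjusted p = 0.789) and at 20 µg/mL 0.04 (adjusted p = 0.892). For each ATF4 read, ATF5 had between 0.259 and 0.277 reads in the vehicle libraries and between 0.0477 and 0.0501 at 500 µg/mL. Of the exon bases of ATF5, 19.5% lie opposite exons of IL4I1 and NUP62. The mean normalised count went from 27.3 to 83.9 for IL4I1 and from 1880 to 1730 for NUP62 between vehicle and high dose, and their part in the ATF5 values was not tested.

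**Figure D2:**
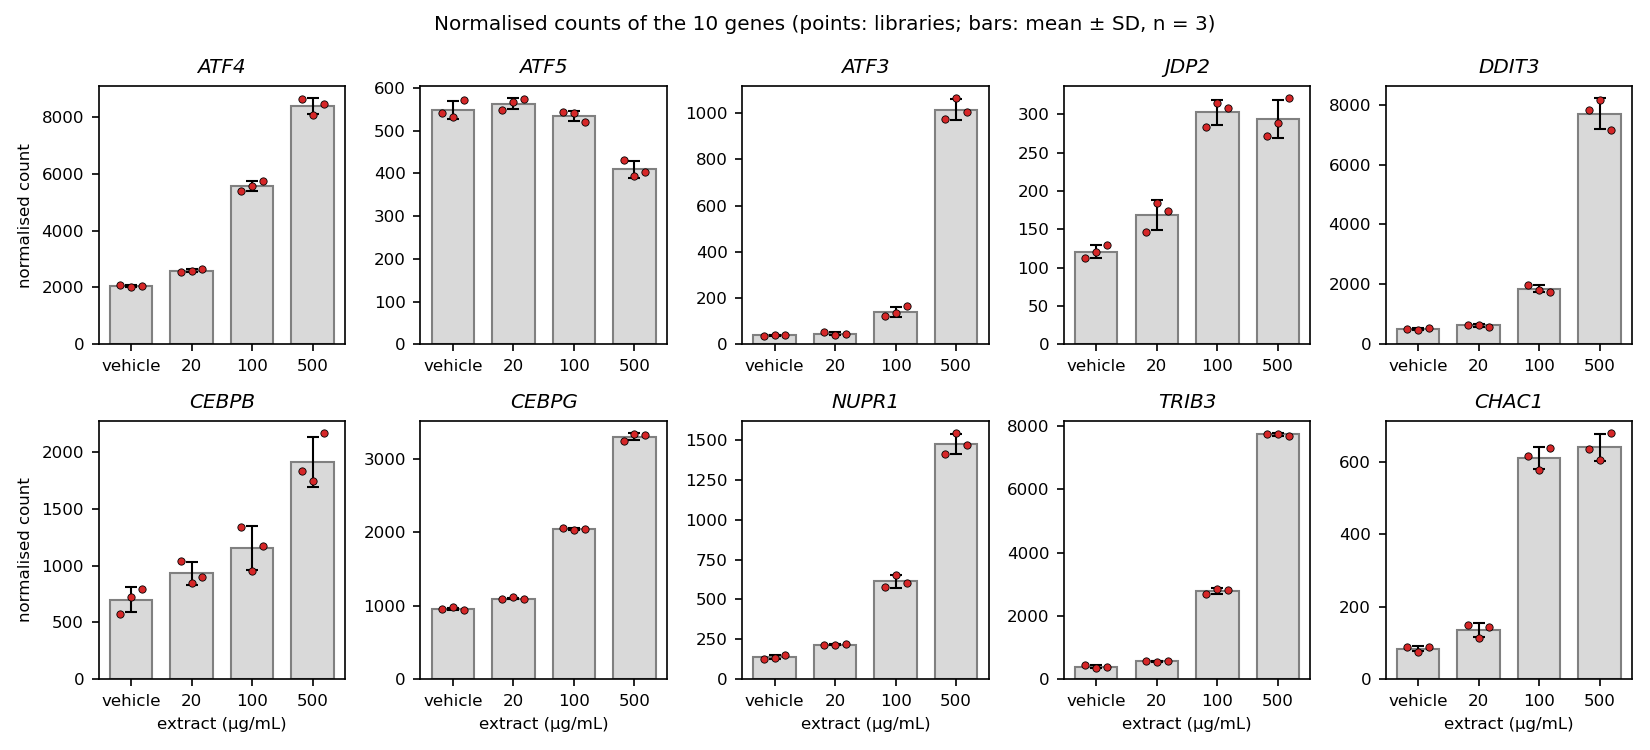
Normalised counts (vertical axes, each on its own scale) of the 10 members in every library by group, with points for libraries and bars for group means with SD. The step in counts from medium to high exceeds that from low to medium for ATF3, DDIT3, CEBPB, CEBPG, NUPR1 and TRIB3, CHAC1 and JDP2 reach their level at the medium dose, and ATF5 is lowest at the high dose, at 394.6 to 431.8.

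DDIT3 (ENSG00000175197, chromosome 12, 57516588 to 57521737, minus strand) encodes CHOP, the C/EBP-family factor associated with death of stressed cells. Normalised counts were 505.2, 481.0 and 557.8 with vehicle, 653.1, 654.8 and 586.0 at 20 µg/mL, 1977, 1820 and 1760 at 100 µg/mL and 7811, 8145 and 7141 at 500 µg/mL. No library of a higher dose fell within the range of a lower one. Against vehicle, the log2 fold change was 3.91 at 500 µg/mL (SE 0.0642, a 14.99-fold rise, DESeq2 p too small to represent) and 1.85 at 100 µg/mL (SE 0.0664, adjusted p = 1.11e-167). At the low dose it was 0.30 (SE 0.0717, DESeq2 adjusted p = 0.00252), a 1.23-fold difference under the threshold. The step from medium to high was 4.16-fold and that from low to medium 2.93-fold, both called. The medium dose had reached 18.6% of the change in normalised count seen at 500 µg/mL, or 47.3% on the log2 scale. Of the DDIT3 exon bases 31.6% lie opposite exons of MARS1, the methionyl-tRNA synthetase, and MBD6. Mean normalised counts of MARS1 were 2770, 3100, 4560 and 5240 in order of dose and those of MBD6 were 613, 664, 726 and 762, and whether reads were exchanged was not tested. On the same strand 8.03% of the exon bases are shared with ENSG00000285133, which is absent from the deposited table.

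ATF3 (ENSG00000162772, chromosome 1, 212565334 to 212620777, plus strand) encodes a stress-inducible bZIP factor that mostly represses its targets as a homodimer. Its normalised counts were 35.86, 39.42 and 39.55 with vehicle, 54.82, 40.8 and 42.9 at 20 µg/mL, 120.5, 133.3 and 164.9 at 100 µg/mL and 973.6, 1064 and 1005 at 500 µg/mL. The groups did not overlap, although the lowest low dose library lay within 2 counts of the highest vehicle library. DESeq2 put the log2 fold change at 4.73 at 500 µg/mL (SE 0.165, 26.48-fold, DESeq2 adjusted p = 8.44e-179) and 1.87 at 100 µg/mL (SE 0.177, 3.66-fold, adjusted p = 3.01e-24). At the low dose it was 0.27 (SE 0.204, DESeq2 adjusted p = 0.598), with a 95% confidence interval of -0.13 to 0.67. The rise from medium to high was 7.24-fold, and the medium dose had reached 10.4% of the high dose change in normalised count.

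JDP2 (ENSG00000140044, chromosome 14, 75427716 to 75474111, plus strand) encodes the bZIP repressor most similar to ATF3. Normalised counts were 112.7, 120.0 and 129.1 with vehicle, 146.2, 184.6 and 173.7 at 20 µg/mL, 284.0, 315.0 and 308.1 at 100 µg/mL and 272.1, 288.3 and 320.8 at 500 µg/mL. The medium and high dose libraries overlapped each other and stood above the rest. The log2 fold change was 1.33 at 100 µg/mL (SE 0.134, DESeq2 adjusted p = 1.43e-21) and 1.29 at 500 µg/mL (SE 0.134, adjusted p = 6.93e-21). Between the 2 doses it was -0.04 with a 95% confidence interval of -0.28 to 0.20 (DESeq2 adjusted p = 0.828). The low dose value was 0.48 (SE 0.140), and DESeq2 gave no adjusted p there, because genes averaging under 263 normalised counts were filtered out of that comparison. The adjusted p missed 0.05 in DESeq2 without that filtering and passed it in edgeR, and the fold change of 1.393 was under the threshold in any case. The CARE core lies close to the start in its printed window.

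CEBPB (ENSG00000172216, chromosome 20, 50190830 to 50192668, plus strand) and CEBPG (ENSG00000153879, chromosome 19, 33373685 to 33382686, plus strand) encode C/EBP factors that dimerise with ATF4 and CHOP. The normalised counts of CEBPB were 576.9, 725.4 and 791.0 with vehicle, 1043, 849.7 and 902.0 at 20 µg/mL, 1341, 954.3 and 1168 at 100 µg/mL and 1830, 1748 and 2166 at 500 µg/mL. The low and medium dose libraries overlapped. Its log2 fold change was 1.46 at 500 µg/mL (SE 0.162, DESeq2 adjusted p = 2.55e-18), 0.73 at 100 µg/mL (SE 0.163, adjusted p = 7.77e-05) and 0.42 at 20 µg/mL (SE 0.163, adjusted p = 0.166). The normalised counts of CEBPG were 949.9, 976.0 and 938.7 with vehicle, 1093, 1111 and 1086 at 20 µg/mL, 2062, 2024 and 2046 at 100 µg/mL and 3246, 3333 and 3324 at 500 µg/mL. These were narrow, separate ranges at every dose. Its log2 fold change was 1.79 at 500 µg/mL (SE 0.0448, DESeq2 p too small to represent), 1.10 at 100 µg/mL (SE 0.0463, adjusted p = 1.25e-121) and 0.20 at 20 µg/mL (SE 0.0494, adjusted p = 0.00407), the last a fold change of 1.148 that was not called. CEBPB-AS1 lies opposite 12.6% of the CEBPB exon bases, with mean normalised counts of 16.3 with vehicle and 9.69 at 500 µg/mL.

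NUPR1 (ENSG00000176046, chromosome 16, 28532708 to 28539008, minus strand) encodes a small chromatin-associated protein induced by many stresses. Its normalised counts were 128.1, 133.2 and 150.9 with vehicle, 215.5, 215.2 and 217.6 at 20 µg/mL, 576.1, 656.1 and 605.9 at 100 µg/mL and 1416, 1544 and 1470 at 500 µg/mL. Each dose stood apart from the one before it. Against vehicle, the log2 fold change was 0.66 at 20 µg/mL (SE 0.110, DESeq2 adjusted p = 6.99e-07), 2.16 at 100 µg/mL (95% confidence interval 1.97 to 2.36, adjusted p = 1.54e-100) and 3.43 at 500 µg/mL (SE 0.0968, adjusted p = 2.36e-272). The low dose call was lost when vehicle replicate 3 (log2 fold change 0.72) or low replicate 2 (0.66) was left out and with only the 6 libraries compared (0.65), because DESeq2 then gave the gene no adjusted p. The Wald test against the fold threshold did not call it either. Vehicle and low dose means of 137 and 216 were under the 263 normalised counts needed for an adjusted p at that dose. NUPR1 passed only through the upper dose libraries, and it stayed called without filtering by mean count. Of the NUPR1 exon bases, 16.5% are shared on the same strand with ENSG00000289754, which is absent from the deposited table.

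TRIB3 (ENSG00000101255, chromosome 20, 362835 to 397559, plus strand) encodes a pseudokinase that binds ATF4 and CHOP and restrains them. The libraries had normalised counts of 437.5, 345.2 and 397.6 with vehicle, 576.1, 552.8 and 575.5 at 20 µg/mL, 2695, 2853 and 2833 at 100 µg/mL and 7763, 7770 and 7696 at 500 µg/mL. The vehicle libraries were the most uneven and the high dose libraries nearly identical. DESeq2 put the log2 fold change at 4.31 at 500 µg/mL (SE 0.0556, 19.77-fold) and 2.84 at 100 µg/mL (SE 0.0571, 7.14-fold), with DESeq2 p too small to represent in both. At the low dose it was 0.54 (SE 0.0651, DESeq2 adjusted p = 8.4e-14), a fold change of 1.451 just under the threshold, which was passed without vehicle replicate 1 (0.62) and under no other alternative that kept the fold threshold.

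CHAC1 (ENSG00000128965, chromosome 15, 40952962 to 40956512, plus strand) encodes an enzyme that breaks down glutathione. The libraries had normalised counts of 88.12, 75.34 and 88.46 with vehicle, 149.1, 113.2 and 143.4 at 20 µg/mL, 616.7, 577.8 and 637.9 at 100 µg/mL and 635.6, 605.4 and 679.1 at 500 µg/mL. The upper doses overlapped each other. The log2 fold change was 2.87 at 100 µg/mL (SE 0.127, DESeq2 adjusted p = 7.41e-111) and 2.94 at 500 µg/mL (SE 0.126, adjusted p = 1.88e-117). Between these doses it was 0.07, with a 95% confidence interval of -0.12 to 0.25 (DESeq2 adjusted p = 0.625). At the low dose it was 0.69 (SE 0.142, DESeq2 adjusted p = 0.000121), and this call was lost without vehicle replicate 3 (0.73) or any of low replicates 1 to 3 (0.62 to 0.81), with total counts as size factors (0.66) and with only the 6 libraries compared (0.69), where DESeq2 gave no adjusted p. It was also lost with the Wald test against the fold threshold. Vehicle and low dose means of 84.0 and 135 were under the 263 normalised counts needed for an adjusted p at that dose. CHAC1 passed only through the upper dose libraries, and it stayed called without filtering by mean count. With JDP2 and ATF5 it was among the 3 members with no called step from medium to high.

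The members differed in how the change was divided between the doses. On the log2 scale the medium dose had reached 39.6% of the high dose change for ATF3, 47.3% for DDIT3, 49.8% for CEBPB, 61.3% for CEBPG, 63.0% for NUPR1, 65.9% for TRIB3, 71.0% for ATF4, 97.7% for CHAC1 and 103% for JDP2. In normalised counts these shares ranged from 10.4% for ATF3 to 105% for JDP2. Among 10727 protein-coding genes whose mean normalised count was 100 or more, the high dose changes of TRIB3 and DDIT3 ranked 7 and 9 from the top, NUPR1 ranked 18 and CHAC1 23. No rank is given for ATF3, which met that minimum only through its high dose libraries. ATF4 ranked 65, CEBPG 92, CEBPB 149 and JDP2 203. At the medium dose the order was different, with CHAC1 at 3, TRIB3 at 4, NUPR1 at 8, DDIT3 at 16 and ATF4 at 26.

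The ratio of each member's count to the ATF4 count of the same library needs no scaling between libraries. For DDIT3 this ratio was 0.238 to 0.271 with vehicle and 0.846 to 1.009 at the high dose, where reads of DDIT3 were thus about as many as those of ATF4. For TRIB3 it was 0.171 to 0.209 with vehicle and 0.900 to 0.963 at the high dose. The ratio of ATF3 went from 0.0171 to 0.0195 with vehicle to between 0.113 and 0.132 at the high dose, and that of NUPR1 from between 0.0612 and 0.0733 to between 0.164 and 0.191. CHAC1 had its highest ratio at the medium dose, 0.103 to 0.115, beside 0.0372 to 0.0430 with vehicle and 0.0737 to 0.0804 at the high dose. The ratios of 3 members that rose were lower at the high dose than with vehicle, as ATF4 had the larger fold change. For JDP2 they were 0.0539 to 0.0627 with vehicle and 0.0316 to 0.0380 at the high dose, for CEBPG 0.454 to 0.482 and 0.376 to 0.413, and for CEBPB 0.276 to 0.384 and 0.212 to 0.257.

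**Figure D3:**
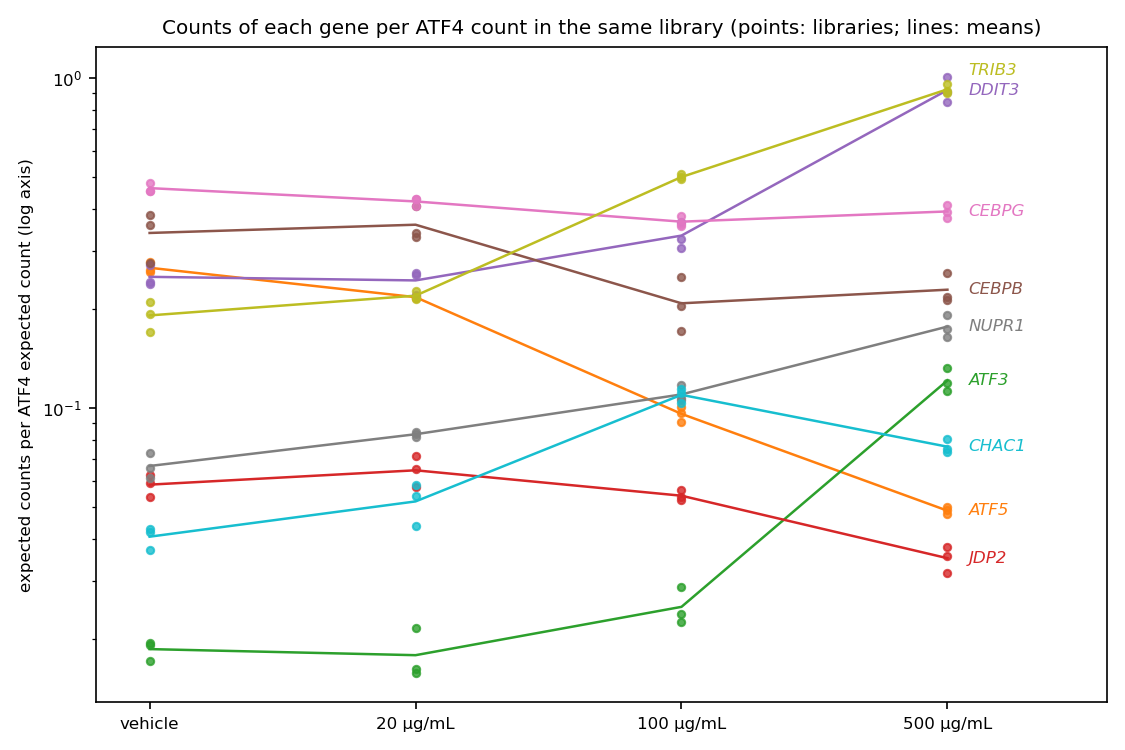
Count of each member divided by the ATF4 count of the same library (vertical axis, log scale) by group, with a point per library. DDIT3 and TRIB3 approach the ATF4 count at the high dose, CHAC1 peaks at the medium dose at 0.103 to 0.115, and ATF5 lies at 0.0477 to 0.0501.

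Levels were compared between members as CPM (counts scaled to a common library total) per kilobase of the main transcript. With vehicle, ATF4 had the highest level at 71.6 ± 1.04 (SD, n = 3), followed by DDIT3 at 28.1, CEBPB at 18.7, ATF5 at 13.5, CEBPG at 12.6, TRIB3 at 8.25, CHAC1 at 2.73, NUPR1 at 1.28, JDP2 at 1.11 and ATF3 at 0.974. No neighbours in that order had overlapping libraries. At the high dose DDIT3 led at 389 ± 27.2 (SD, n = 3), then ATF4 at 270 ± 8.15, TRIB3 at 150, CEBPB at 47.5, CEBPG at 40.4, ATF3 at 23.9, CHAC1 at 19.2, NUPR1 at 12.7, ATF5 at 9.32 and JDP2 at 2.49, again without overlap between neighbours. JDP2 and ATF3 overlapped at the low dose, and CEBPB and CEBPG at the medium dose. The order depends on the transcript chosen, since NUPR1 has a main transcript of 5291 bases and a shortest coding transcript of 550, and JDP2 of 5378 and 631. With the shortest coding transcript of each gene, a choice added after the data were seen, 8 members changed rank with vehicle and 5 at the high dose, and the high dose libraries of DDIT3 and ATF4 overlapped.

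**Figure D4:**
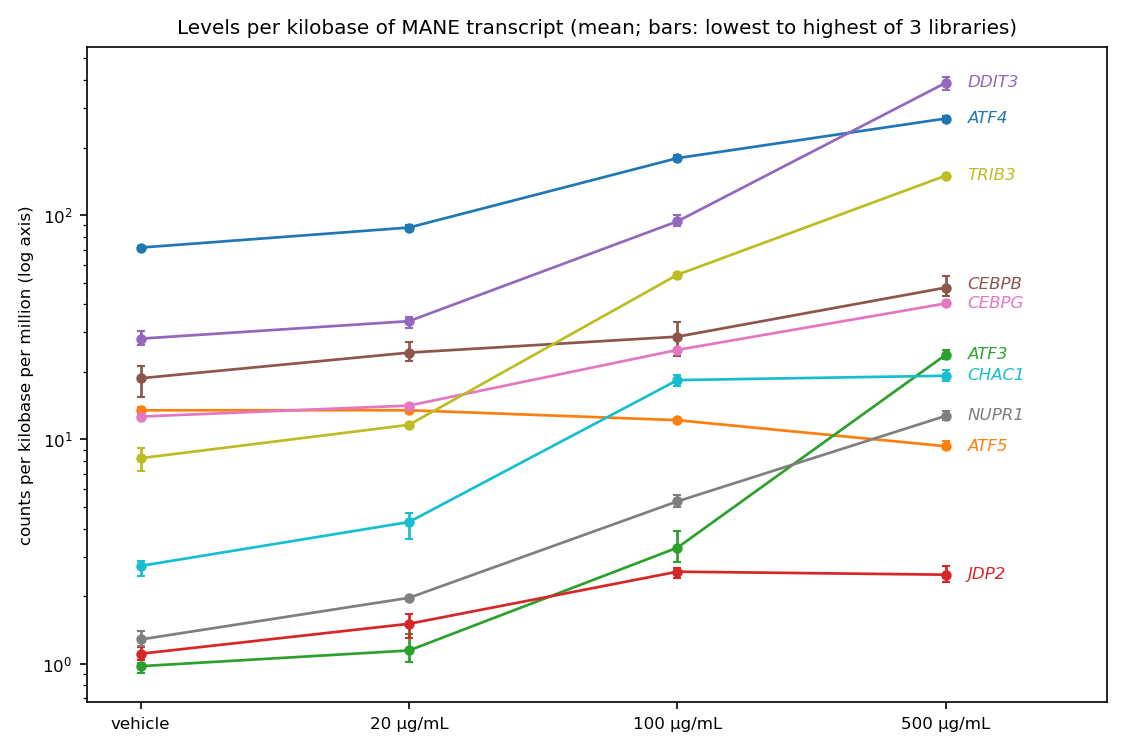
CPM per kilobase (log scale) of the 10 members in the 4 groups, with points for group means and bars from the lowest to the highest library. ATF4 leads with vehicle at a mean of 71.6 and DDIT3 at the high dose at a mean of 389, and ATF3 moves from the lowest place to the sixth.

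Genes with patterns most like those of ATF4, DDIT3 and ATF3 over the 12 libraries were sought. The measure was the root mean square difference of log2 normalised counts, each centred on its own vehicle mean. The search covered 10717 other protein-coding genes with a mean normalised count of 100 or more. A gene could meet that minimum through its high dose libraries. For ATF4 the nearest were SH3BGR (0.13), TUBE1, which encodes epsilon-tubulin (0.144), and ADAMTS6, a secreted metalloprotease (0.158). For DDIT3 they included the thrombin receptor THBD (0.193) and the kinase SIK1 (0.241). For ATF3 they were the neurotrophin receptor NGFR (0.175), the hexokinase-like HKDC1 (0.39) and THBD (0.491). Exons opposite NGFR cover 27.2% of its exon bases. The closest match of ATF3 was thus nearer to it than the other two were.

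The other genes of the bZIP family moved in both directions. Of 43, 42 had a count, 11 rose and 5 fell at the high dose, 2 rose and 3 fell at the medium dose and 0 were called at the low dose, and the median high dose log2 fold change was 0.31. The medium dose rises were MAFF (0.62) and NFIL3 (0.59), and the falls included NFE2 and HLF (-0.70). The count of rises became 1 without vehicle replicate 2 or 3 or medium replicate 1 or 2. It became 0 with total counts as size factors. With the Wald test against the fold threshold none of these named genes was called at the medium dose. These medium dose genes were named after their values were seen. The largest rises were those of the small Maf factors MAFF (2.05, SE 0.0812, DESeq2 adjusted p = 2.53e-138) and MAFG (1.42, SE 0.047, adjusted p = 7.68e-197). NFE2, a factor of blood cells, fell from a mean of 33.5 to 1.07 (DESeq2 adjusted p = 8.34e-08). Among 4 relatives of TRIB3, CHAC1 and NUPR1, the pseudokinase TRIB1 rose by 0.90 and TRIB2 fell by 0.59 on the log2 scale at the high dose. The TRIB2 call was lost without vehicle replicate 3, high replicate 2 or high replicate 3, and with the Wald test against the fold threshold. CHAC2, the second enzyme of glutathione breakdown of this type, had a log2 fold change of -0.40 (DESeq2 adjusted p = 0.031) and was not called, and NUPR2 had no count.

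Targets and arms of the stress response were followed in 4 further lists. Of 20 genes for amino acid supply and one-carbon metabolism, 18, 16 and 0 rose at the high, medium and low dose, with a median log2 fold change of 1.45 at the high dose. They were led by asparagine synthetase ASNS (2.87) and CTH, the enzyme that makes cysteine from cystathionine (2.49). Of 16 signalling, secreted and death genes, 12, 9 and 2 rose at the high, medium and low dose, with a median of 1.57. The stress cytokine GDF15 (6.81) and the peptide hormone ADM2 (4.21) led that list, and they were also the 2 called at the low dose (0.94 and 0.91). Vehicle and low dose means were 78.0 and 151 normalised counts for GDF15 and 39.8 and 75.25 for ADM2. Both genes met the mean of 263 needed for an adjusted p at the low dose only through the upper dose libraries. That low dose count became 1 without vehicle replicate 3, high replicate 2 or 3, medium replicate 2 or 3, or any of low replicates 1 to 3, and 0 with only the 6 libraries compared. Of 16 genes of the ATF6 and XBP1 arm, which act in folding and degradation of proteins in the endoplasmic reticulum, 11, 3 and 0 rose at the high, medium and low dose, with a median of 0.73. They were led by HERPUD1 (2.68) and DNAJB9 (1.95), and the 3 at the medium dose were these and the chaperone HSPA5 (0.85), named after its value was seen. Of 18 eIF2 kinases, phosphatases and translation factors, 2 rose at the high dose and 0 at the medium and low doses, with a median of 0.14. These 2 were EIF2S2, a subunit of eIF2 (0.74), and OMA1, the mitochondrial protease upstream of the kinase HRI (0.74). PPP1R15A, the inducible subunit of an eIF2 phosphatase, was counted in the signalling list and rose by 2.94 at the high and 1.06 at the medium dose on the log2 scale, and it is named here after its values were seen. No gene of these 4 lists fell past the thresholds in the comparisons with vehicle, except that 1 signalling gene did at the medium dose without vehicle replicate 3 or medium replicate 2, with total counts as size factors and with the replicate block. Medians are over genes with at least 10 normalised counts on average, and the counts are to be read against the shares of all tested genes given above.

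**Figure D5:**
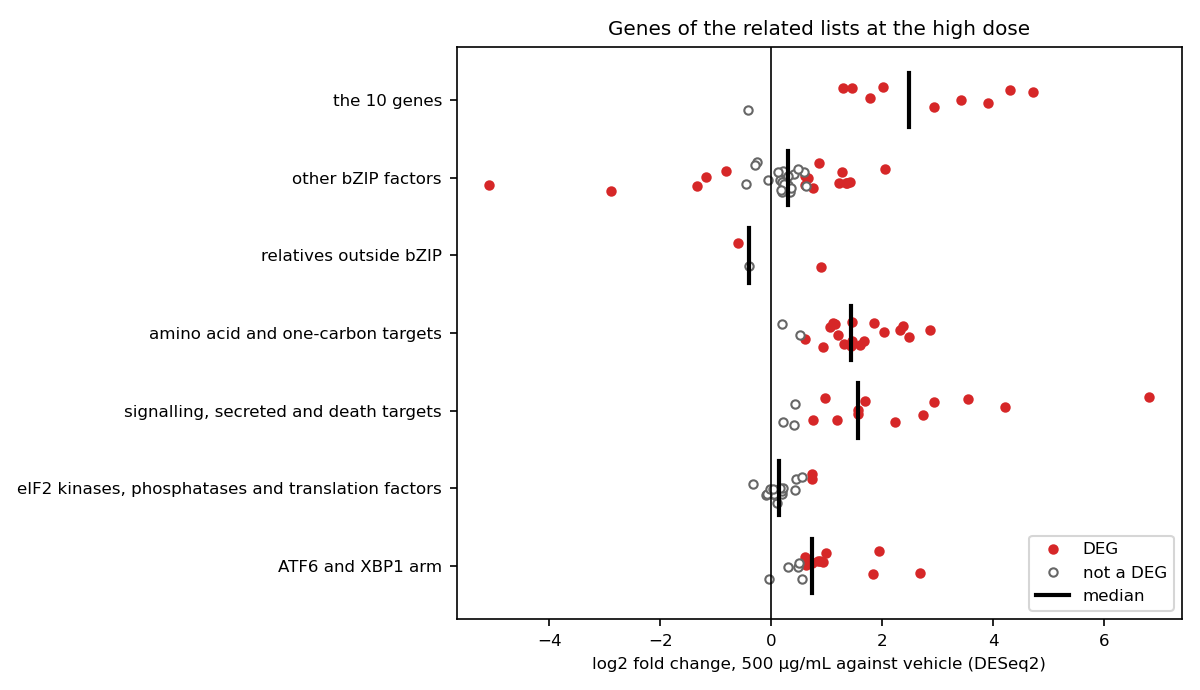
Log2 fold changes at the high dose against vehicle (horizontal axis) of the members and of genes in the 6 lists. List genes are drawn at a mean normalised count of at least 10, with the median of each list as a line. The members have a median of 2.48, the amino acid list 1.45 and the eIF2 list 0.14, and the other bZIP factors spread to both sides of 0.

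Total counts per library lay between 18863863 and 24200576, and ATF3, with the fewest counts of the set with vehicle, carried the widest intervals against vehicle. Of 12 astrocyte and astrocytoma markers, 5 reached a mean of 1 CPM (SLC1A3, VIM, NES, CD44 and SOX9), whereas GFAP, S100B and SLC1A2 lay under 1 CPM and AQP4, ALDH1L1, SOX2 and FABP7 had at most 3 counts in any library. Summed over that list the level was 6870 to 7490 CPM in all groups. Summed neuronal markers (4 of 6 at 1 CPM or more) were 179 to 188 CPM with vehicle and 93.4 to 95 at the high dose, and colon epithelial markers (2 of 8) 241 to 250 and 81.8 to 86.1, with CDH1, VIL1, CDX2, KRT20 and LGALS4 at 3 counts or fewer. Immune markers (3 of 5) were 156 to 163 CPM with vehicle and 181 to 193 at the high dose. Mitochondrial ribosomal RNA took 0.912% to 0.96% of counts with vehicle, 3.01% to 3.33% at the low dose, 7.67% to 8.05% at the medium dose and 5.76% to 6.06% at the high dose. The part of these in the results was not tested.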

How the data were processed

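The authors prepared strand-specific libraries, sequenced them as paired ends and, per the submitters' processing notes, used FastQC 0.11.9, Trim Galore 0.6.5, STAR 2.7.3a and RSEM 1.3.3 on GRCh38. Strand setting and poly(A) selection are not given in the sources used here. The values the authors deposited are RSEM expected counts for each gene, not normalised by the authors and not whole where reads were shared. Of the members, ATF5, DDIT3 and CEBPB had non-whole values in 12 of 12 libraries and ATF4 in 4. Here the expected counts were rounded, and all genes were fitted with DESeq2 1.42.0 in R 4.3.3 on 12 libraries with group as the only term (two-sided Wald test, likelihood ratio test among the groups). Calls needed an adjusted p under 0.05 and a fold change over 1.5, after the study's own criteria, with independent filtering at 0.05. Genes with a mean normalised count under 1.72 at the high, 18.3 at the medium and 263 at the low dose had no adjusted p. Replicates differed by more than counting noise (chi-square 2.06 to 3.77 per degree of freedom). Replicate numbers paired the medium and low dose libraries, as far as the data show (deviations of all 3 same-numbered pairs correlated, r 0.124 to 0.193), though no label says what a number marks. The DESeq2 and edgeR fits were also tested on simulated counts, after the fit to the real data.

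Symbols and coordinates came from GENCODE v44 on GRCh38, 1-based. Main transcripts are those of the MANE set, and promoters were taken from RefSeq. All 10 members are named, with the 2 called genes of largest rise and fall in each list at a mean normalised count of at least 10, all relatives outside bZIP and the 3 nearest patterns to ATF4, DDIT3 and ATF3. Some genes that met this rule are not reported here. The members and lists were chosen with earlier results of these data known. Alternatives included edgeR 4.0.16, other scalings and filters, a test against the fold threshold, a replicate block, 6-library fits and leaving out each library.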

Additional observations from a re-analysis of the deposited data

How the results depend on the processing

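At the high dose 9 members were called under every alternative except the adjusted p alone (10), and at the medium dose 9 except with the Wald test against the fold threshold (8). The low dose count of 2 was the least stable. It was 1 with total counts as size factors, 0 with the Wald test against the fold threshold, 0 with only the 6 libraries compared and 6 with the adjusted p alone. Leaving out 1 library gave 0 to 3: 0 without vehicle replicate 3 or low replicate 2, 1 without low replicate 1 or low replicate 3, and 3 without vehicle replicate 1. The cause in most of these is that DESeq2 gave the gene no adjusted p. From medium to high the count of 7 became 4 with the test against the fold threshold. The log2 fold change of JDP2 from medium to high turned from -0.04 to 0.0087 without high replicate 1, uncalled in both. Ranks per kilobase differed for 2 members with vehicle and 3 at the high dose with the union of exons as length, and for 8 and 5 with the shortest coding transcript, which was added after the data were seen.

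With the replicate block the counts were 9, 9, 2, 7 and 8 for high, medium and low dose against vehicle, high against medium and medium against low, and 10 in the likelihood ratio test, as without it. Deviations from the group means correlated over 0.1 in 5 of 18 same-numbered pairs (-0.118 to 0.221), of which 3 were between medium and low dose, and in 0 of 36 pairs with different numbers (-0.158 to 0.098). In the other comparisons not every same-numbered pair passed 0.1. Total-count scaling moved the median log2 fold change of 11264 genes averaging 100 or more normalised counts by -0.11 at the high and medium dose and -0.04 at the low dose. At the low dose JDP2 was under the mean count that DESeq2 needed for an adjusted p. Protein levels were not examined.

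Over all genes, 3546, 537 and 11 were called at the high, medium and low dose, 1679 from medium to high and 273 from low to medium. With the Wald test against the fold threshold these were 1491, 114, 2, 480 and 68. With edgeR the medium dose, low dose and low to medium counts were 809, 30 and 427. The low dose count was 18 without independent filtering, 6 with only the 6 libraries compared, 6 without low replicate 1 or 2 and 7 without vehicle replicate 3.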
